A study of Mus musculus with 10 samples.

Results

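Estradiol (E2) against vehicle was examined in the ventral hippocampus (vHpc) of ovariectomized (OVX) Het-Met mice, using 6 of the 10 RNA-seq libraries analysed here: 3 from vehicle-treated and 3 from E2-treated animals. Members were chosen by label alone, as every library of OVX Het-Met mice. The mice were C57BL/6 females that carried 1 copy of the Met allele of the brain-derived neurotrophic factor (BDNF) Val66Met knock-in, in which valine at residue 66 of the BDNF precursor is replaced by methionine. They were ovariectomized at 70 to 80 days of age and recovered for 2 weeks. For the next 6 weeks they drank water with 300 nM E2 in 0.1% ethanol, about 0.7 µg per day, or with 0.1% ethanol alone as vehicle. Each library was a pool of RNA from 2 animals, so every value below is the level of a pool, and p-values measure the spread between pools. The other 4 libraries, 2 of vehicle-treated and 2 of E2-treated OVX wild-type (WT) mice of the same strain, surgery and treatment, were used for the shared estimate of the spread and where the E2 response was compared between genotypes. The comparison asks which vHpc genes E2 add-back alters in Met carriers that lack ovarian hormones.

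E2 acts through the nuclear receptors encoded by Esr1 and Esr2, which bind DNA at estrogen response elements or act through other transcription factors, and through the membrane receptor encoded by Gper1. BDNF is a secreted neurotrophin that signals through the receptor tyrosine kinase TrkB, encoded by Ntrk2, and supports synaptic plasticity in the hippocampus. The Met substitution lies in the prodomain and impairs the activity-dependent release of BDNF, and the ventral pole of the hippocampus is the part most closely tied to stress and emotional behavior.

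The tables held CPM values, the reads of a gene per 1000000 reads on all genes of its library. Between 19820184 and 21562281 reads were counted on genes in the vehicle-treated and between 20435141 and 21692470 in the E2-treated Het-Met pools. A gene listed at 0 was therefore limited to between 0.138 and 0.151 CPM (3 reads), counting error only. Replicate Het-Met pools of 1 group differed by 7.66 to 14.1 times the sampling noise (chi-square per degree of freedom), and the WT pools by 3.40 and 12.7 times. All 8 markers of CA1 pyramidal neurons and all 11 markers of the ventral pole were detected in every pool, with summed levels of 1117 to 1290 CPM and 902 to 1289 CPM in the 6 Het-Met pools. Markers of neighbouring regions were detected too, so detection alone does not identify the region. Markers of the choroid plexus, the epithelium that secretes cerebrospinal fluid into the ventricle beside the hippocampus, varied several-fold between pools and are given before the genes.

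E2 add-back gave no differentially expressed gene in OVX Het-Met mice when the adjusted p-value had to be under 0.05 with a change of more than 1.3-fold (0 of 15081 genes tested, 0%, limma on log2(CPM + 0.5) with Benjamini-Hochberg adjustment). The smallest adjusted p-value was 0.159 (limma), shared by Plxdc1 and Fibcd1. The quasi-likelihood test of edgeR on the reads recovered from the CPM values also called 0 genes, and DESeq2 called 6, namely Vwc2l, Plxdc1, Fibcd1, Tshz3, Slc17a6 and Cckbr. At an unadjusted p-value under 0.05, 822 genes (5.45%) differed, 426 higher (2.82%) and 396 lower (2.63%) with E2. With the fold change limit, 154 genes (1.02%) were higher and 140 (0.928%) lower, and these counts are read below as a ranking of genes rather than as calls. The median log2 fold change of all genes tested was 0.00, with quartiles of -0.07 and 0.08. A gene of median precision (standard error 0.10) needed a log2 change of 0.22 to reach even the unadjusted threshold. With 3 pools on each side an exact permutation test of a single gene cannot give a p-value below 0.1.

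**Figure D1:**
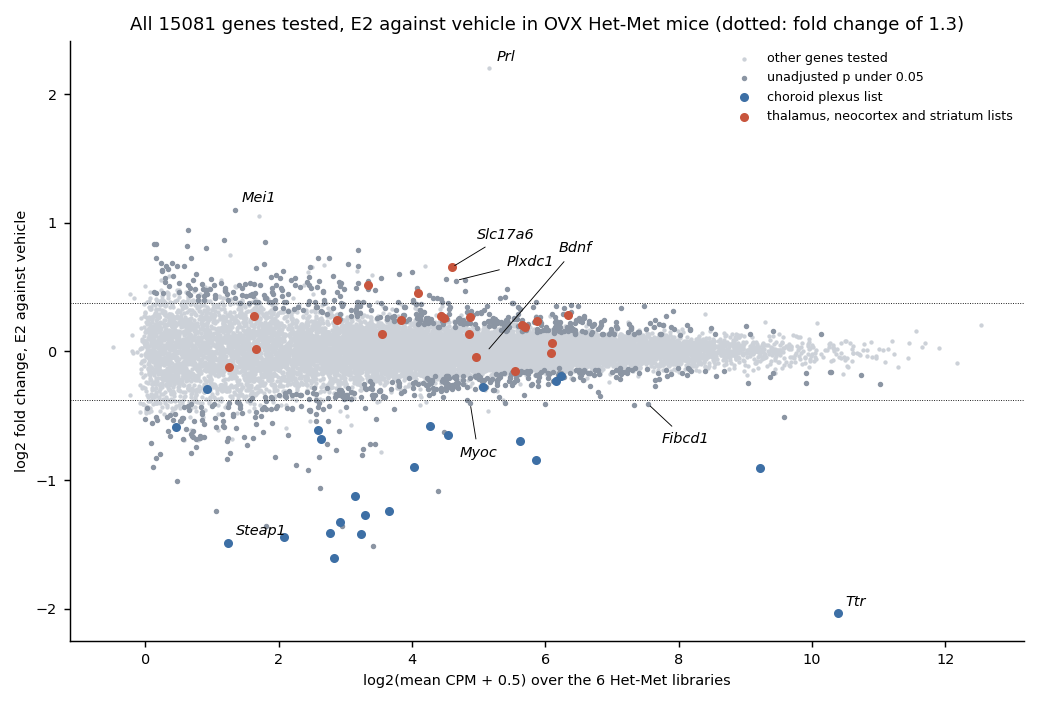
Log2 fold change of E2 against vehicle in OVX Het-Met mice (y axis, log2(CPM + 0.5) scale) against the log2 mean level over the 6 Het-Met libraries (x axis), 1 point per gene tested, with dotted lines at a fold change of 1.3. All 23 choroid plexus markers (blue) lie below 0, down to -2.04 for Ttr, while 17 of the 21 thalamic, neocortical and striatal markers (red) lie above it.

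Choroid plexus markers were lower with E2 in all 23 of 23 genes, with a median log2 fold change of -0.90 against 0.00 for all genes tested, of which 51.8% lay above 0. Of these, 16 had an unadjusted p-value under 0.05, where 2.63% of all genes tested were lower at that threshold, and 0 passed the adjusted test (limma). Summed over the list, the level was 4415, 2399 and 3038 CPM in vehicle-treated pools 1, 2 and 3 and 2578, 996 and 706 CPM in E2-treated pools 1, 2 and 3. E2-treated pool 1 lay between the vehicle-treated pools, and E2-treated pools 2 and 3 lay below all of them. Sostdc1, a secreted antagonist of BMP and Wnt signaling, had 17.1, 9.08 and 12.7 CPM under vehicle and 10.03, 3.60 and 3.18 CPM under E2 (log2 fold change -1.27, standard error 0.36, adjusted p = 0.710, limma). Ttr, the thyroxine carrier transthyretin that defines this epithelium and was named after its values were seen, had 3055, 1316 and 1734 CPM under vehicle and 1370, 362 and 204 CPM under E2, a log2 fold change of -2.04 (standard error 0.66). Both genes were lowest in E2-treated pools 2 and 3, and the libraries of the 2 groups overlapped. The number of markers lower at an unadjusted p-value under 0.05 was 5 without E2-treated pool 3, 9 without E2-treated pool 2, 8 without vehicle-treated pool 1 and 22 without E2-treated pool 1. In WT mice the summed level was 541 and 1879 CPM under vehicle and 4087 and 3078 CPM under E2, the opposite order. Choroid plexus tissue can enter a hippocampal dissection in unequal amounts, and in bulk RNA fewer cells of a type and less RNA per cell cannot be told apart.

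Ependymal markers, from the ciliated cells that line the ventricle, were lower in 14 of 15 genes (median log2 fold change -0.19). At the unadjusted threshold 3 of them were lower (1 without vehicle-treated pool 1), as were 2.63% of all genes tested. Foxj1, the master regulator of motile cilia, had 12.3, 10.95 and 11.3 CPM under vehicle and 10.4, 7.88 and 8.35 CPM under E2, without overlap between the groups (log2 fold change -0.36, standard error 0.12). The other 2 were Cfap126 and Rsph1, components of motile cilia, with log2 fold changes of -0.44 and -0.35. Of 16 markers of meningeal fibroblasts 8 were higher and 8 lower (median -0.03). At the unadjusted threshold 4 were lower, against the same 2.63% of all genes tested. Among the 4 were the growth factor gene Igf2 (-0.41, with E2-treated pool 1 inside the vehicle range) and the matrix proteoglycan genes Ogn (-0.31) and Bgn (-0.29). Choroid plexus markers moved in the same direction as these genes, and with the choroid plexus level held fixed Foxj1 (-0.22), Cfap126 (-0.33), Rsph1 (-0.23), Igf2 (-0.21) and Bgn (-0.22) no longer passed the unadjusted threshold, while Ogn did (-0.32). The choroid plexus level differed between groups, so holding it fixed can also widen standard errors, here and below. A gene that no longer passed did therefore not always have a smaller change.

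Pituitary hormone genes differed between single pools rather than between groups. Prl, which encodes prolactin, had 6.97, 5.197 and 1.44 CPM under vehicle and 36.6, 160 and 0.854 CPM under E2, and Gh, which encodes growth hormone, had 3.80, 5.75 and 1.90 CPM under vehicle and 8.76, 40.0 and 0.0948 CPM under E2. E2-treated pool 2 was the highest and E2-treated pool 3 the lowest of the 6 pools for both hormones. Of the 10 pituitary markers 4 were tested and 0 passed the unadjusted threshold. The number was 2 with edgeR, 1 with DESeq2, 2 without E2-treated pool 3, 2 with a replicate block within the Het-Met libraries and 3 with the choroid plexus level held fixed, where the log2 fold change of Prl went from 2.20 to 4.67. Without E2-treated pool 2 that of Gh went from 0.60 to -0.77. The pituitary transcription factor gene Pou1f1 did not exceed 0.0897 CPM in any library. The erythrocyte genes Hba-a1, Hba-a2, Hbb-bs and Hbb-bt were listed at 0 in all 10 libraries, so the blood content could not be read from globins. Alas2, the heme synthesis enzyme of red cells, was the only blood marker tested and did not pass the unadjusted threshold (log2 fold change -0.30).

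**Figure D2:**
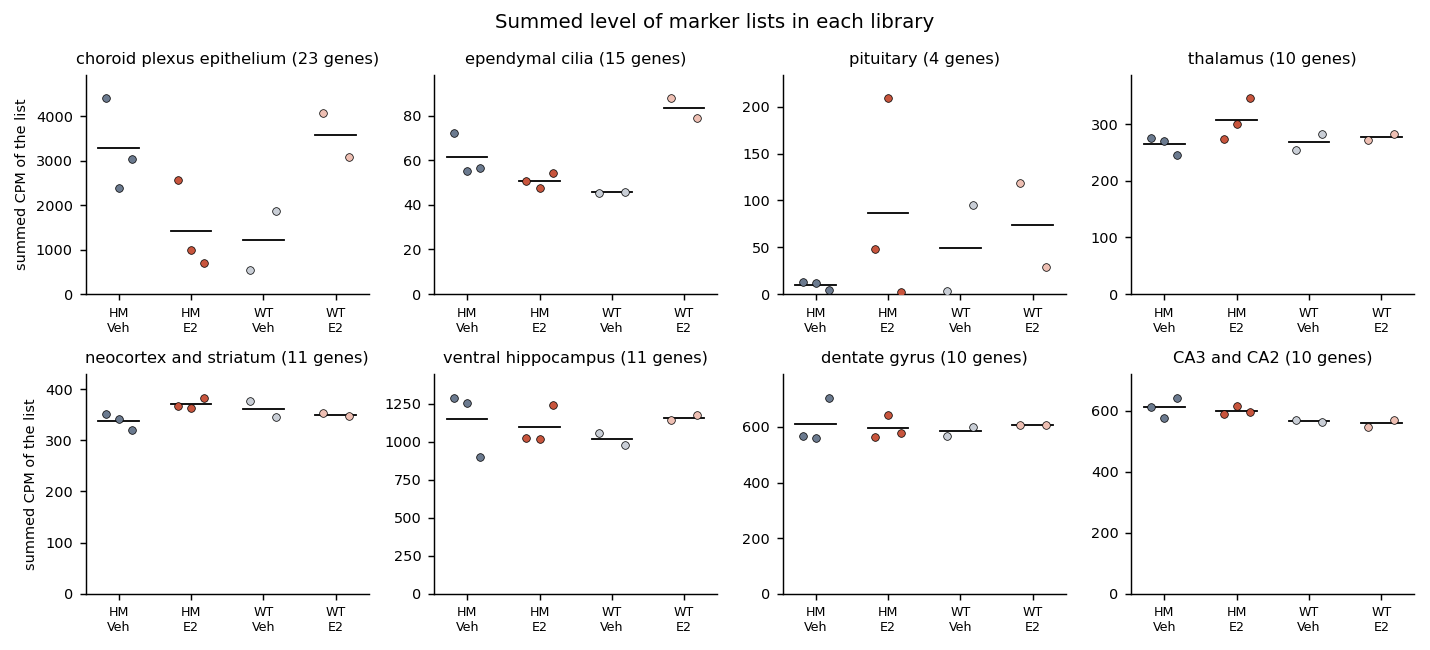
Summed CPM of 8 marker lists in each library (points) with group means (bars) for vehicle-treated and E2-treated Het-Met (HM) and WT mice, each y axis starting at 0. Choroid plexus levels of E2-treated Het-Met pools run from 706 to 2578 CPM and those of vehicle-treated pools from 2399 to 4415 CPM, while the hippocampal lists overlap between groups.

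The genes named next are the 12 higher and the 12 lower genes with the smallest p-values among those past an unadjusted p-value of 0.05 and a fold change of 1.3 whose 3 E2-treated and 3 vehicle-treated pools did not overlap. Non-overlap on the higher side was seen in 5.15% and on the lower side in 5.11% of all genes tested. Since these pools chose the genes, their values are a description, and the adjusted p-values over all 15081 genes are the test.

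Several genes of synaptic transmission led the higher group. Slc17a6 encodes the vesicular glutamate transporter VGLUT2, which loads glutamate into vesicles of subcortical and some hippocampal neurons. Its level was 21.4, 17.8 and 15.8 CPM under vehicle and 25.6, 31.4 and 29.9 CPM under E2 (chr7:51622006-51671119 of mm10, plus strand). All E2-treated pools were above all vehicle-treated pools, by 0.65 ± 0.11 on the log2 scale (standard error), with an adjusted p-value of 0.212 (limma). Cckbr, the receptor for cholecystokinin in the brain, had 19.8, 19.0 and 15.1 CPM under vehicle and 25.8, 24.02 and 30.4 CPM under E2 (log2 fold change 0.56). Chrna4, the α4 subunit of the nicotinic acetylcholine receptor, had 33.3, 40.5 and 32.4 CPM under vehicle and 46.1, 42.1 and 55.2 CPM under E2 (log2 fold change 0.43), with vehicle-treated pool 2 close below E2-treated pool 2. Grm4, a presynaptic metabotropic glutamate receptor, and Rxfp1, the relaxin receptor, had log2 fold changes of 0.41 and 0.68.

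Plxdc1, a transmembrane protein with a plexin repeat, had the smallest p-value of the higher genes (chr11:97923238-97986444 of mm10, minus strand). It had 19.1, 21.7 and 19.2 CPM under vehicle and 29.2, 27.9 and 31.4 CPM under E2, with means of 19.99 ± 1.48 and 29.5 ± 1.77 CPM (SD, n = 3 each). The groups were well apart, by 0.55 ± 0.09 on the log2 scale (standard error), with an adjusted p-value of 0.159 (limma). Secreted and matrix proteins were also among the higher genes. Vwc2l, a secreted protein with von Willebrand factor C domains, had 10.3, 11.8 and 9.55 CPM under vehicle and 14.1, 16.6 and 18.2 CPM under E2 (log2 fold change 0.60). Col24a1, a fibrillar collagen, had a log2 fold change of 0.85, and the antisense gene 9530034A14Rik overlaps it, so their reads may not have been separated. Tshz3, a zinc finger transcription factor of projection neurons, had a log2 fold change of 0.55. Mei1, known from meiosis, had 1.23, 1.11 and 0.974 CPM under vehicle and 2.94, 2.72 and 3.18 CPM under E2. It had the largest log2 difference of the 12 higher genes (1.10), at a level of few reads. Bglap3 (log2 fold change 0.87) has near-identical osteocalcin copies and its reads are uncertain. Adjusted p-values of the 12 genes ran from 0.159 to 0.597 (limma).

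Fibcd1 headed the lower genes and had the smallest p-value of all genes tested. It encodes a membrane receptor that binds acetylated sugars and is a marker of CA1 pyramidal neurons (chr2:31813290-31846005 of mm10, minus strand). It had 204, 224 and 204 CPM under vehicle and 165, 148 and 164 CPM under E2, with means of 211 ± 11.1 and 159 ± 9.45 CPM (SD, n = 3 each). Every E2-treated pool was below every vehicle-treated pool, its log2 level being -0.41 ± 0.06 (standard error) relative to vehicle, at an adjusted p-value of 0.159 (limma). Holding the choroid plexus marker level fixed left it at -0.42. Tspan33, a tetraspanin, had a log2 fold change of -0.40.

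H2-T10, a nonclassical MHC class I gene, had 6.83, 7.21 and 7.61 CPM under vehicle and 4.21, 2.86 and 4.79 CPM under E2 (log2 fold change -0.82), but near-identical H2-T copies and overlapping genes make its reads uncertain. H2-Aa, an MHC class II chain of antigen-presenting cells, had a log2 fold change of -0.66, Bst2, the interferon-induced antiviral protein tetherin, -0.79, and Pglyrp1, which binds bacterial peptidoglycan, -0.63. As lists, microglial markers had 7 higher and 8 lower of 15 (median -0.04, with Trem2 at -0.34 alone past the unadjusted threshold), and interferon response genes had 11 higher and 12 lower of 23 (median -0.00). Myoc, which encodes the secreted protein myocilin, had 34.2, 33.4 and 30.9 CPM under vehicle and 24.6, 23.4 and 26.2 CPM under E2 (log2 fold change -0.40, standard error 0.10, adjusted p = 0.597, limma), and the gene Myocos overlaps it on the other strand. Perp, a membrane protein of desmosomes, had a log2 fold change of -0.49.

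The remaining lower genes were Steap1, Slc2a12, Krt8 and Wdr63. Steap1, a membrane protein of the metalloreductase family and a member of the choroid plexus list, had 3.46, 2.12 and 3.11 CPM under vehicle and 1.76, 0.461 and 0.285 CPM under E2 (log2 fold change -1.49). Slc2a12, which encodes the glucose transporter GLUT12 and overlaps Tbpl1, had 12.9, 10.7 and 10.99 CPM under vehicle and 8.61, 5.16 and 6.45 CPM under E2 (log2 fold change -0.76). In both genes E2-treated pool 1 was the highest of the E2-treated pools, as it was in the summed choroid plexus level. With the choroid plexus level held fixed, the log2 fold change of Steap1 was -0.57 and that of Slc2a12 was -0.38. Steap1 is itself part of that level, so its smaller value was partly built in. Krt8, a keratin of simple epithelia, and Wdr63, an axonemal dynein-associated protein of motile cilia, were -0.83 and -0.79, and -0.67 and -0.55 with the choroid plexus level fixed. Adjusted p-values of the 12 lower genes ran from 0.159 to 0.668 (limma).

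**Figure D3:**
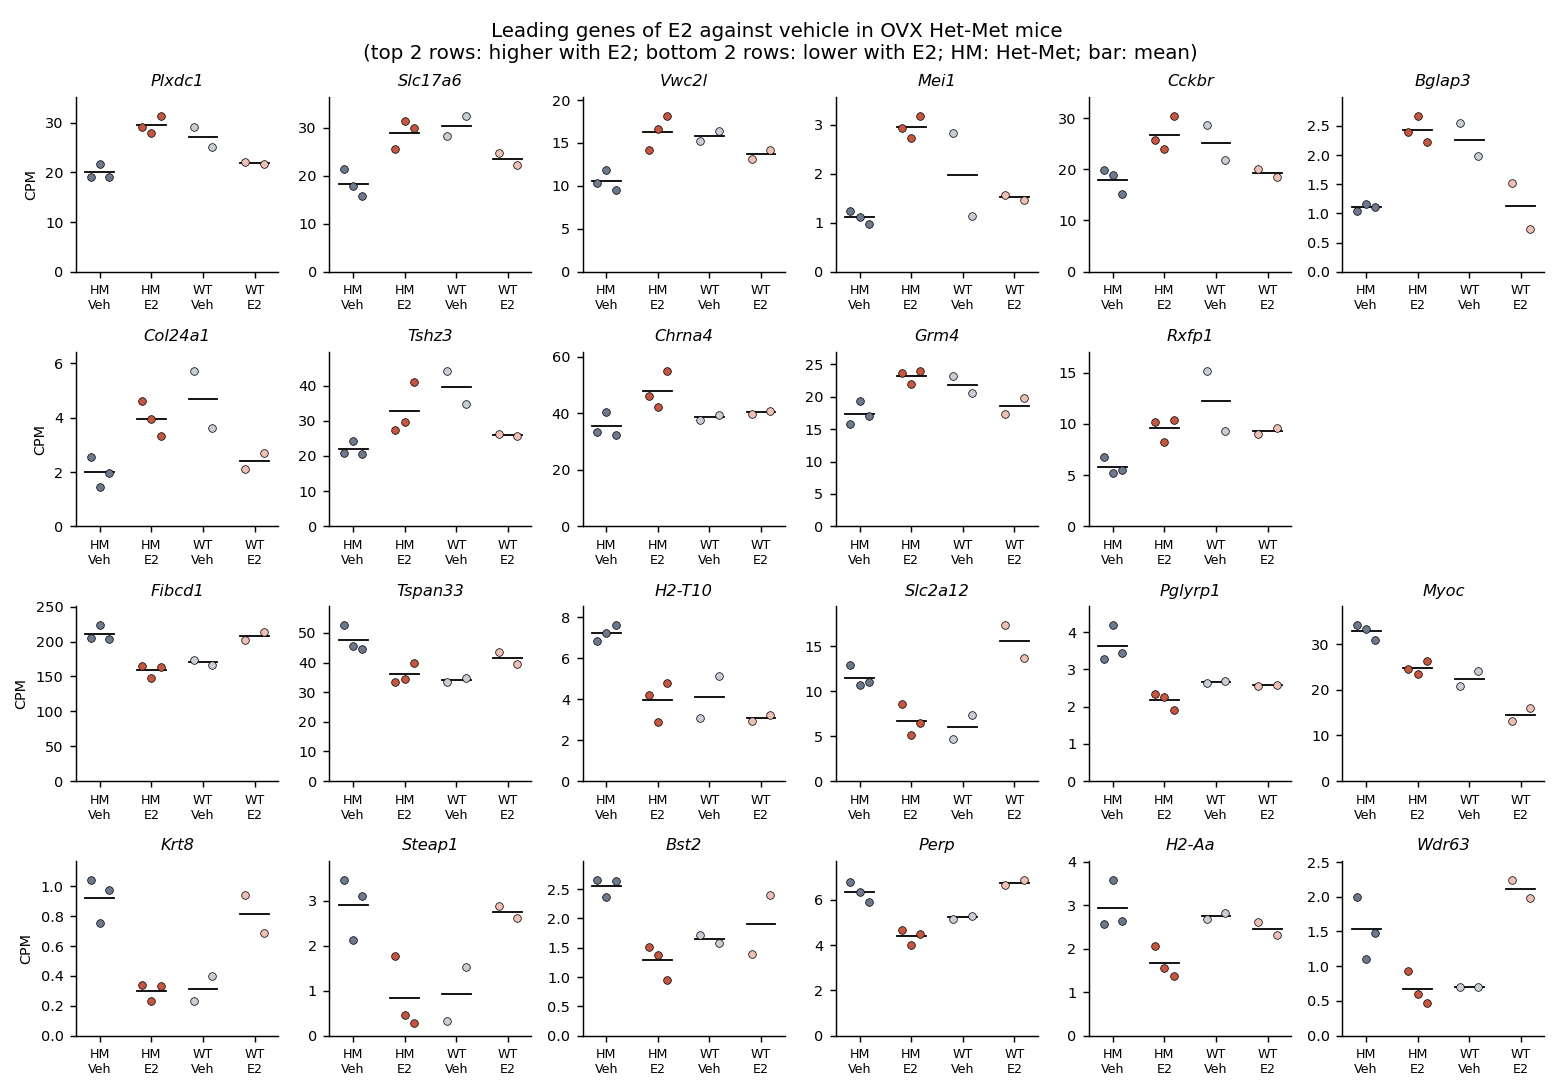
CPM of 23 of the 24 leading genes in each library (points, y axis from 0) with group means (bars) for vehicle-treated and E2-treated Het-Met (HM) and WT mice. In Het-Met mice the 3 E2-treated and 3 vehicle-treated pools do not overlap in any panel, by the rule that chose the genes, and Fibcd1 runs from 148 to 165 CPM under E2 against 204 to 224 CPM under vehicle.

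Promoters of these genes were searched for the estrogen response element, since nuclear estrogen receptors bind it. The window was the 250 bases upstream of each RefSeq transcription start (GRCm38.p6), and either strand was searched for the full palindrome (GGTCA and TGACC with 3 bases of any kind between them) and for the half-site AGGTCA. Windows were given for 8 of the 12 higher and 10 of the 12 lower genes. The full element was in 0 of the 11 windows of the higher genes and 0 of the 10 windows of the lower genes, against 21 of 32851 windows of all genes (0.0639%). The half-site was in 2 of 11 windows (18.2%, Col24a1 and Mei1) and in 1 of 10 (10%, Krt8), against 14.02% of all windows. The 3 windows with a half-site are printed with it in capitals, as it reads 5′ to 3′ on the gene's strand, beside that of Fibcd1, the gene with the smallest p-value, which holds none. They lie at chr2:31846006-31846255 (Fibcd1, minus strand), chr3:145292222-145292471 (Col24a1, plus strand), chr15:102004343-102004592 (Krt8, minus strand) and chr15:82082226-82082475 (Mei1, plus strand, inside the longer gene of the GENCODE annotation). The Krt8 window lies partly inside the GENCODE gene as well.
Fibcd1: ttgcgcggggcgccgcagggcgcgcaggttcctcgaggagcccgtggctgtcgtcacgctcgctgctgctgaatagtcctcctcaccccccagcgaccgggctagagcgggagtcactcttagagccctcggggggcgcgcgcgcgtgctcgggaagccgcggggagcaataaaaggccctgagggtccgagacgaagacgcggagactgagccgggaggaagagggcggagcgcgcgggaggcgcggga
Col24a1: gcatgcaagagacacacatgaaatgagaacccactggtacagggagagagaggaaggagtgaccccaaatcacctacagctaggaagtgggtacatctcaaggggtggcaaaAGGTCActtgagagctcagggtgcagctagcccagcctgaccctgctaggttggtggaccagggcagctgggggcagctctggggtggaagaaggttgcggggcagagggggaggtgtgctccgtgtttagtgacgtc
Krt8: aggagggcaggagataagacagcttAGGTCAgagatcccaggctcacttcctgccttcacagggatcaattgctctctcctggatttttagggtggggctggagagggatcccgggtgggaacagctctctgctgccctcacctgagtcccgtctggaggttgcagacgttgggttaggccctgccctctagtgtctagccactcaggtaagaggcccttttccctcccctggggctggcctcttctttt
Mei1: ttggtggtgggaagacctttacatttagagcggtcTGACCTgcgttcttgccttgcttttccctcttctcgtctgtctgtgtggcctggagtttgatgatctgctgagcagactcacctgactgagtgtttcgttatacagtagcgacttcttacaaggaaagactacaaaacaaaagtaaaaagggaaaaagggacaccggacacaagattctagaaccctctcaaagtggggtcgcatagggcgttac
In Mei1 the half-site is on the opposite strand and reads TGACCT. These matches describe letters in the sequence and are not binding sites.

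Markers of brain regions that adjoin the vHpc were counted next, and 0 of them passed the adjusted test (limma). Of 10 thalamic markers 9 were higher and 1 lower, with a median log2 fold change of 0.26, and 4 passed the unadjusted threshold on the higher side, where 2.82% of all genes tested did. They were Slc17a6, the Wnt pathway transcription factor gene Tcf7l2, the axon guidance gene Ntng1 and Plekhg1, the last named after its values were seen. Tcf7l2 had 9.16, 6.71 and 7.56 CPM under vehicle and 9.35, 12.03 and 12.8 CPM under E2 (log2 fold change 0.52), with E2-treated pool 1 just above vehicle-treated pool 1. Ntng1 had 54.8, 54.5 and 51.2 CPM under vehicle and 56.7, 59.3 and 74.4 CPM under E2 (0.24), and its highest value was again in E2-treated pool 3. Of 11 neocortical and striatal markers 8 were higher, with a median of 0.14, and 4 passed on the higher side, among them Tbr1, a transcription factor of cortical glutamatergic neurons (0.29), and Lamp5 (0.19). Tbr1 had 69.2, 74.4 and 74.1 CPM under vehicle and 84.6, 85.0 and 96.6 CPM under E2, without overlap. Without E2-treated pool 3 the counts past the threshold were 2 for the thalamic and 1 for the neocortical and striatal list. The thalamic count was 7 without E2-treated pool 1, and the other was 2 without vehicle-treated pool 3. With the choroid plexus level fixed they were 2 and 1 as well, with medians of 0.19 and 0.09, and Ntng1 (0.14) and Lamp5 (0.09) were among those lost. Neighbouring tissue in the dissection and higher levels in hippocampal neurons, which express several of these genes, cannot be told apart here.

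Among hippocampal subfields, CA1 markers had 3 higher and 5 lower of 8 (median -0.01). At the unadjusted threshold 1 was higher and 2 were lower, Fibcd1 and the thyroid hormone binding protein gene Crym (-0.27). Other CA1 markers were Wfs1 (0.11), Mpped1 (-0.02) and Pou3f1 (-0.05), which were named after their values were seen. CA3 and CA2 markers were lower in 9 of 10 genes (median -0.11), with the adhesion gene Amigo2 (-0.28) and the Bcl-2 family gene Bok (-0.22) past the threshold, and the calmodulin regulator Pcp4 (0.23) past it on the higher side. Amigo2 had 37.7, 32.8 and 35.3 CPM under vehicle and 28.4, 28.2 and 30.4 CPM under E2, without overlap. Pcp4 (0.11) and Bok (-0.26) no longer passed with the choroid plexus level fixed. Dentate gyrus markers had 4 higher and 6 lower of 10. Dcx, the microtubule protein doublecortin of immature neurons, had 31.8, 31.1 and 27.1 CPM under vehicle and 35.2, 34.0 and 47.6 CPM under E2 (0.36), while Tdo2, a tryptophan-degrading enzyme, was lower (-0.54), and with the choroid plexus level fixed neither passed (0.26 and -0.45). Ventral pole markers were lower in 10 of 11 genes (median -0.13), and 0 passed the unadjusted threshold. The median was -0.26 without vehicle-treated pool 3, where 6 passed on the lower side, and 0.03 without vehicle-treated pool 1, where 0 passed.

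Of the glial and vascular lists, 0 of 15 astrocyte and 0 of 19 oligodendrocyte and myelin markers passed the unadjusted threshold. Of 17 endothelial and mural markers 3 passed it, all lower, where 2.63% of all genes tested were lower at that threshold. The 3 were Mfsd2a, the lipid transporter of the blood-brain barrier (-0.34), the smooth muscle actin gene Acta2 (-0.30) and the glucose transporter gene Slc2a1 (-0.22). Mfsd2a had 21.9, 19.5 and 21.0 CPM under vehicle and 17.6, 16.6 and 14.9 CPM under E2, without overlap. Mfsd2a (-0.21) and Slc2a1 (-0.08) no longer passed with the choroid plexus level fixed, and Acta2 was -0.48. Among 15 interneuron markers 11 were higher (median 0.05), and Reln (0.25), which encodes the secreted protein reelin, and Lamp5 (0.19) passed, the latter no longer with the choroid plexus level fixed (0.09).

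Genes of estrogen signaling were tested as 22 receptors, coregulators and classical targets, and 13 were higher and 9 lower (median 0.01). The receptor gene Esr1 had 4.98, 5.95 and 4.59 CPM under vehicle and 3.82, 3.23 and 7.49 CPM under E2. E2-treated pools held both the lowest and the highest value, and the log2 fold change was -0.16 (95% interval -0.63 to 0.31). Esr2 stayed below 1 CPM in all 6 pools, and Gper1 had a log2 fold change of -0.18. Pgr, the progesterone receptor gene and a classical E2 target in reproductive tissue, had 23.6, 28.8 and 21.5 CPM under vehicle and 26.0, 25.6 and 27.7 CPM under E2, a log2 fold change of 0.11 (95% interval -0.11 to 0.33). The list member that passed the unadjusted threshold was Igfbp2, a binding protein of insulin-like growth factors (log2 fold change -0.70). It is also on the choroid plexus list, and it was -0.24 with the choroid plexus level fixed. Because Igfbp2 is part of that level, its smaller value was partly built in.

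Bdnf itself had 32.9, 31.7 and 38.4 CPM under vehicle and 33.5, 34.7 and 34.4 CPM under E2. The E2-treated pools lay inside the range of the vehicle-treated pools, and the log2 fold change was 0.00 when rounded to 2 decimals (95% interval -0.21 to 0.21). Its receptor gene Ntrk2 had a log2 fold change of 0.05 (95% interval -0.15 to 0.26). Of 18 neurotrophin genes tested, Sorcs1, a sorting receptor of the sortilin family, passed the unadjusted threshold (0.28). It had 15.9, 16.4 and 13.9 CPM under vehicle and 17.6, 19.7 and 19.2 CPM under E2, without overlap, and it was 0.26 and no longer past the threshold with the choroid plexus level fixed.

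Among receptors for fast transmission, 10 of 15 GABA-A receptor genes were higher (median 0.05). At the unadjusted threshold 2 were higher and 0 lower. Among the former, the subunit gene Gabrb2 (log2 fold change 0.18) had 267, 281 and 263 CPM under vehicle and 285, 314 and 319 CPM under E2. Its groups did not overlap. Of 18 ionotropic glutamate receptor genes 9 were higher and 9 lower. The AMPA receptor subunit Gria4 was higher (0.23) and the AMPA receptor subunit Gria1 lower (-0.16). Gria1 had 1290, 1268 and 1410 CPM under vehicle and 1179, 1252 and 1119 CPM under E2, with E2-treated pool 2 close below vehicle-treated pool 2. Gabrb2 (0.18), Gria4 (0.18) and Gria1 (-0.12) no longer passed with the choroid plexus level fixed, although the value of Gabrb2 was no smaller.

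Stress and activity genes gave few differences. Fkbp5, a cochaperone that restrains the glucocorticoid receptor and is induced by glucocorticoids, had 57.1, 59.2 and 62.1 CPM under vehicle and 47.7, 55.2 and 46.2 CPM under E2. It did not overlap between groups (log2 fold change -0.26, standard error 0.08, adjusted p = 0.748, limma) and was the only one of 13 glucocorticoid and CRH genes past the unadjusted threshold, which it no longer passed with the choroid plexus level fixed (-0.21). The receptor gene Nr3c1, named after its values were seen, had a log2 fold change of 0.02. Immediate-early genes, which neuronal activity induces, were lower in 17 of 24 (median -0.04). The list median was 0.03 without vehicle-treated pool 3 and 0.04 with the choroid plexus level fixed. Gadd45b (-0.36) and Egr2 (-0.66) passed on the lower side and Nr4a2 (0.23) on the higher side. Egr2 overlapped between groups at 0.332 to 2.37 CPM, ran from -0.96 to -0.31 with 1 library left out and was -0.34 with the choroid plexus level fixed, where neither it nor Nr4a2 passed.

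The ESC/E(Z) complex methylates histone H3 and silences genes, and of its 13 genes tested 8 were higher and 5 lower (median 0.01). The core genes Ezh2, Suz12, Eed and Rbbp4 had log2 fold changes of 0.01, 0.01, 0.18 and 0.05. Eed had 11.9, 12.1 and 11.2 CPM under vehicle and 14.04, 13.7 and 12.4 CPM under E2, which did not overlap, but it missed the unadjusted threshold. The other members were Aebp2 (-0.02), Ezh1 (-0.03), Hdac2 (-0.02), Jarid2 (0.06), Mtf2 (0.11), Phf1 (-0.05), Phf19 (0.20), Rbbp7 (-0.06) and Sirt1 (0.21). Sirt1, an NAD-dependent deacetylase, was the member past the unadjusted threshold, with 19.8, 17.96 and 22.2 CPM under vehicle and 23.9, 23.4 and 22.2 CPM under E2. Its vehicle-treated pool 3 and E2-treated pool 3 were nearly equal. The 95% interval of Aebp2 was -0.15 to 0.12 and that of Mtf2 was -0.07 to 0.28. Of 9 epigenetic genes that the study named across species, Mtf2 among them, 0 passed the unadjusted threshold for E2 against vehicle. The study picked these 9 from another comparison, E2-treated Het-Met against E2-treated WT mice, so 0 here does not test its result. That comparison shares the E2-treated libraries, so the list is not independent of the data. The complex was defined from earlier work, and some of its genes were in the RNA-seq heat map of the study. The study also measured these genes by qRT-PCR on a replication, as percent change from OVX WT mice. It reports Eed, Ezh1, Ezh2 and Phf1 downregulated and Phf19 upregulated in E2-treated Het-Met mice, the reverse of E2-treated WT mice. Rbbp4 was downregulated by E2 in Het-Met mice. Aebp2 and Sirt1 were lower in Het-Met mice whatever the treatment, which is a contrast between genotypes.

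Cholesterol synthesis genes were higher in 17 of 21 (median log2 fold change 0.10, against 0.00 for all genes tested), and 3 passed the unadjusted threshold, where 2.82% of all genes tested did. Idi1, an isomerase of the mevalonate pathway, had 0.949, 0.706 and 0.139 CPM under vehicle and 1.32, 1.29 and 1.94 CPM under E2 (log2 fold change 0.95), a low level in every pool. Fdft1, which makes squalene, had 73.6, 68.0 and 56.8 CPM under vehicle and 76.8, 74.8 and 75.1 CPM under E2 (0.20). Insig1, the sterol sensor that retains the pathway's activator, was 0.21. None of the 3 overlapped between groups, with vehicle-treated pool 3 lowest in each. With the choroid plexus level fixed 9 genes passed with a median of 0.20, and without vehicle-treated pool 3 or any 1 of the E2-treated pools 1 passed, with medians of 0.06 to 0.13. Without vehicle-treated pool 1 the number was 5.

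**Figure D4:**
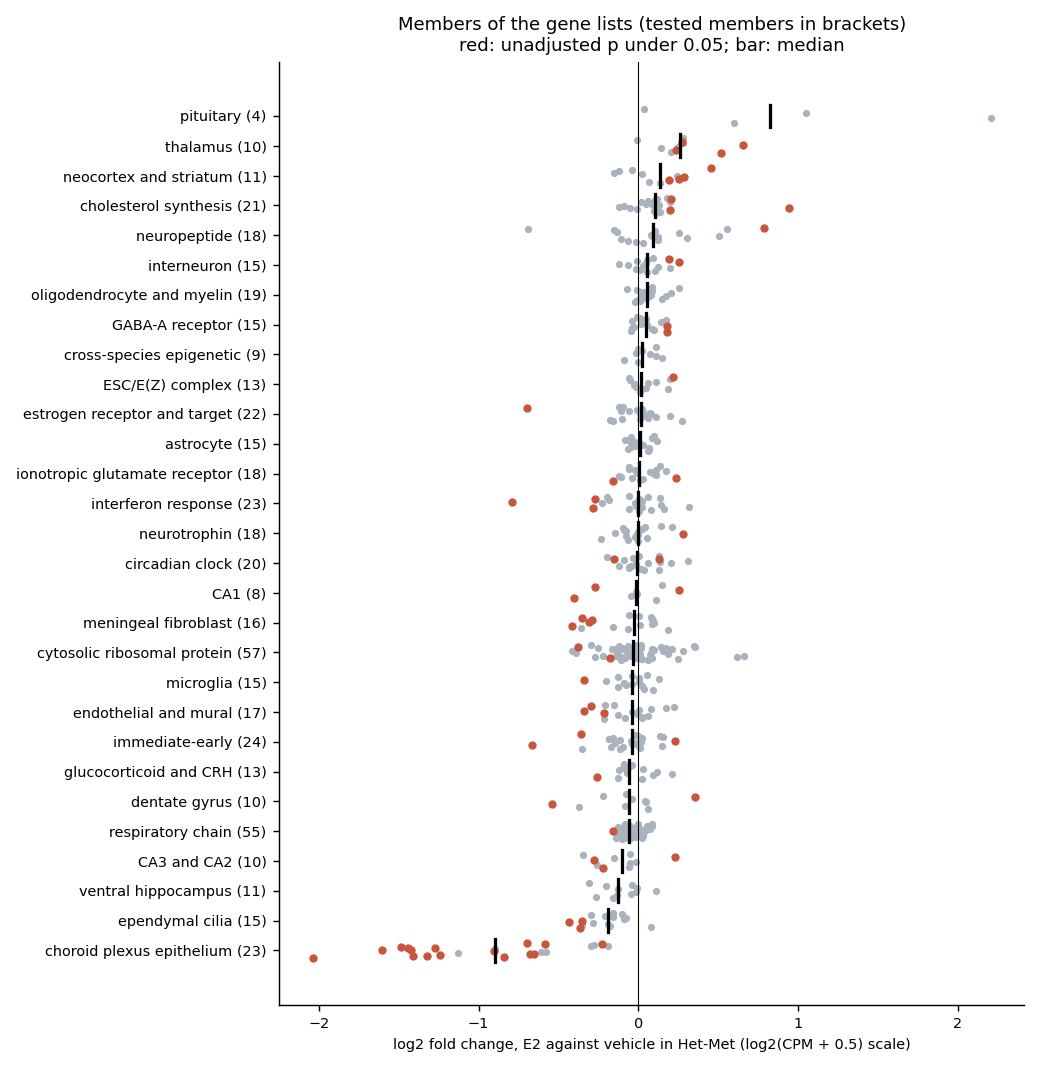
Log2 fold change of E2 against vehicle in Het-Met mice (x axis, log2(CPM + 0.5) scale) for every tested member of the gene lists, with unadjusted p-values under 0.05 in red and list medians as bars. The choroid plexus median is -0.90 and the thalamic median 0.26, while most other lists centre near 0.

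The E2 response of OVX Het-Met mice was compared with that of OVX WT mice by the interaction in the same limma fit. Of 15081 genes, 11 (0.0729%) differed at an adjusted p-value under 0.05 and 818 (5.42%) at an unadjusted p-value under 0.05. Among the 24 leading genes 5 passed the adjusted test, among them Plxdc1, Fibcd1, Slc2a12 and Wdr63. The 24 were chosen by their Het-Met response, which is part of this difference. The count of 5 can therefore not be read against the share of all genes. Leaving out 1 library gave 0 of the 24 in 8 of the 10 cases, but 10 without E2-treated Het-Met pool 1 and 9 without vehicle-treated WT pool 3. Fibcd1 had 174 and 166 CPM in vehicle-treated and 202 and 213 CPM in E2-treated OVX WT mice, an order opposite to that of Het-Met mice. The difference of responses was -0.69 on the log2 scale (standard error 0.10, adjusted p = 0.0333, limma). Plxdc1 had 29.2 and 25.03 CPM under vehicle and 22.1 and 21.8 CPM under E2 in WT mice, and its difference was 0.84 (standard error 0.14, adjusted p = 0.0454, limma). In both genes the vehicle-treated pools of the 2 genotypes did not overlap either.

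The 12 higher genes of Het-Met mice had a negative log2 fold change in WT mice in 11 of 12, of which 7 passed the unadjusted threshold on the lower side, as did 1.66% of all genes tested, and Chrna4 was the exception (0.06). The 12 lower genes had a positive log2 fold change in WT mice in 8 of 12, of which 7 passed on the higher side, as did 2.37% of all genes tested. Both contrasts used the same spread estimate of each gene, and the genes were chosen by small Het-Met p-values. The shares of all genes are therefore not a fair reference for these counts. Myoc was lower in both genotypes, with -0.40 in Het-Met and -0.61 in WT mice, and the difference of its responses was 0.21 (standard error 0.15). Slc2a12 had 4.72 and 7.38 CPM under vehicle and 17.4 and 13.8 CPM under E2 in WT mice, a difference of responses of -2.07 (standard error 0.29, adjusted p = 0.0333, limma). Choroid plexus levels moved in opposite directions in the 2 genotypes as well, with medians of -0.90 and 1.81, and with them held fixed 0 of the 24 differences passed the adjusted test. The differences were then -0.74 for Fibcd1, 0.59 for Plxdc1 and -1.06 for Slc2a12, so Fibcd1 lost the threshold without a smaller difference. The zinc finger gene Zfp459 had 1.52, 1.31 and 1.34 CPM under vehicle and 1.91, 2.31 and 2.28 CPM under E2 in Het-Met mice, a log2 fold change of 0.49 (95% interval 0.11 to 0.87, adjusted p = 0.797, limma). The corresponding value in WT mice was 1.54, and the difference of the responses was -1.05 (adjusted p = 0.285, limma).

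**Figure D5:**
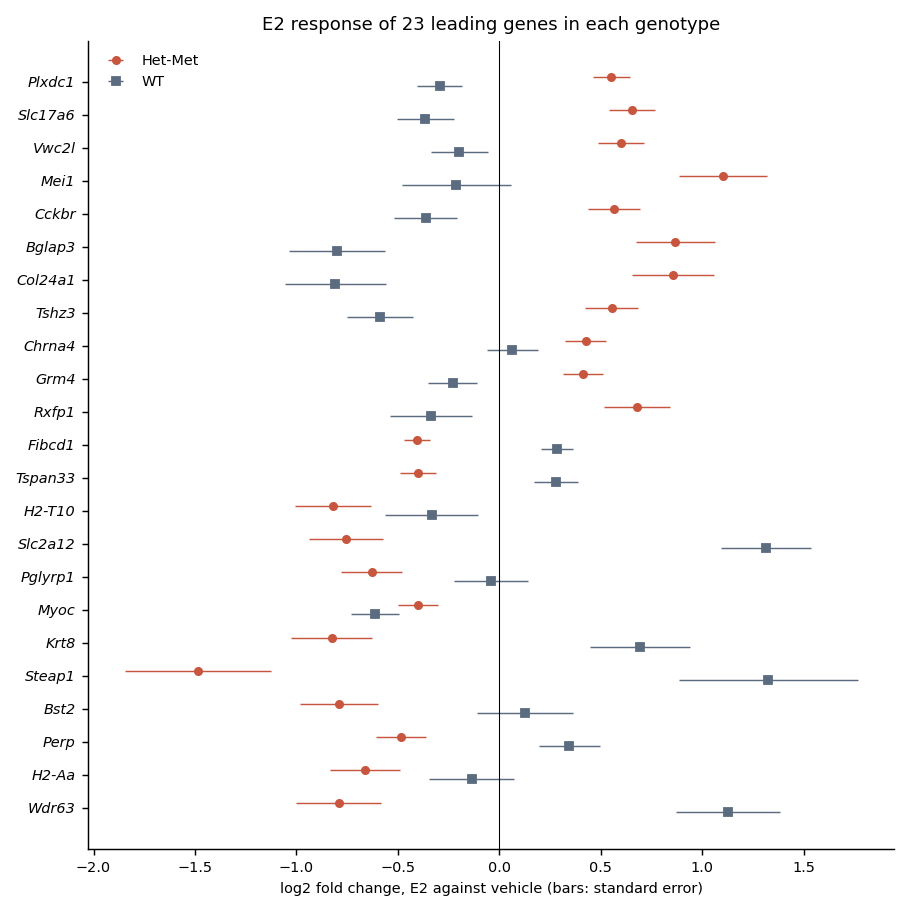
Log2 fold change of E2 against vehicle (x axis) for 23 of the 24 leading genes in Het-Met (circles) and WT mice (squares), with standard errors as bars. Of the 11 upper genes drawn 10 lie on the other side of 0 in WT mice, while Myoc lies below 0 in both (-0.40 and -0.61).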

How the data were processed

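RNA was extracted from the vHpc, and stranded libraries were sequenced as 75-base single reads. Per the labels, the authors aligned reads with TopHat2 to mm10 and used DESeq and DESeq2; versions and the strand setting of counting are not given in the sources used here. The deposited table holds CPM values, counts per 1000000 reads on genes, for 24421 gene symbols, although its column names speak of counts: every library summed to 1000000 and 100% of the values were whole multiples of 1 read within 0.01 read. Each library therefore gave back its reads, 19820184 to 23267410 on genes. Floors and intervals cover counting error or the spread between pools only. Of the symbols, 23376 matched the GENCODE annotation directly, 670 by an older symbol and 375 not or ambiguously.

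A gene was tested if its mean over the 10 libraries reached 0.5 CPM (15081 genes). limma 3.58.1 (R 4.3.3) was fitted to log2(CPM + 0.5) with 4 group means and an intensity trend, so fold changes of low genes are understated. Benjamini-Hochberg adjustment covered all genes tested. edgeR 4.0.16 and DESeq2 1.42.0 were run on the recovered reads as alternatives. The limma fit was tested on simulated counts with known changes. Figures were drawn with matplotlib 3.10.9.

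Named genes were the 12 higher and 12 lower by smallest p-value among those past an unadjusted p-value of 0.05 and a fold change of 1.3 without overlap, leaving out predicted and clone-named genes, up to 3 members with the smallest p-values of each of 30 gene lists, and a fixed set of Bdnf, Ntrk2, Esr1, Esr2, Gper1, Pgr, Myoc, Zfp459 and the 13 ESC/E(Z) genes. The comparison and the lists were chosen with earlier results of these data known, so lists are described by counts and medians and have no test. The choroid plexus level held fixed is the mean log2 level of its 23 markers, entered as a covariate. It differed between groups, which can widen standard errors, and it contains Steap1 and Igfbp2 themselves. Several named genes overlap another annotated gene, from which their reads may not have been separated. Among them are Igf2, Ogn, Rsph1, Amigo2, Pcp4, Reln, Slc2a1, Bdnf, Ntrk2, Sorcs1, Fkbp5, Fdft1, Sirt1, Zfp459, Krt8, Prl, Alas2, Gper1, Eed, Mtf2 and Tef. Further WT samples were not analysed here. Some genes that the rule selects are counted but not reported here by name.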

Additional observations from a re-analysis of the deposited data

Results flagged for a closer look

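In 6 of the genes named here the E2 response passed the test of a difference between genotypes, the interaction in the limma fit over all 10 libraries at an adjusted p-value under 0.05. The 6 genes were named for their small Het-Met p-values, and the Het-Met response is part of this difference. The Het-Met response minus the WT response, on the log2 scale, was 0.84 for Plxdc1, -0.69 for Fibcd1, -2.07 for Slc2a12, -1.92 for Wdr63, -1.13 for the cilia regulator Foxj1 and -1.23 for the growth factor gene Igf2. Foxj1 had 8.42 and 8.52 CPM in vehicle-treated and 15.7 and 13.9 CPM in E2-treated WT pools. Igf2 had 131 and 117 CPM in vehicle-treated and 239 and 200 CPM in E2-treated WT pools. In both genes the WT pools under E2 were above those under vehicle.

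The choroid plexus level also moved in opposite directions in the 2 genotypes. With it held fixed the differences were 0.59 for Plxdc1, -0.74 for Fibcd1, -1.06 for Slc2a12, -1.26 for Wdr63, -0.74 for Foxj1 and -0.68 for Igf2, and 0 of the 6 passed the adjusted test (smallest adjusted p = 0.9999, limma). The difference of Fibcd1 was not smaller than without the fixed level. Leaving out 1 library left 0 of the 6 past it in 8 of 10 cases, 6 without Het-Met E2 replicate 1 and 4 without WT vehicle replicate 3. The WT response rests on 2 pools a side.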

How the results depend on the processing

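The count of genes past the adjusted threshold was 0 in every alternative except DESeq2, which called 6, and it ran from 0 to 0 with 1 library left out. The smallest adjusted p-value over the limma and edgeR alternatives ran from 0.0828 without Het-Met E2 replicate 1 to 0.9996 with the choroid plexus level held fixed. The 154 genes higher at the unadjusted threshold and fold change limit became 99 with a mean of at least 2 CPM, and 113 (without Het-Met E2 replicate 3) to 264 (without Het-Met E2 replicate 2) with 1 library left out. The 140 lower genes became 82 with at least 2 CPM and 91 with DESeq2, and 108 (without Het-Met vehicle replicate 1) to 249 (without Het-Met E2 replicate 1) with 1 library left out. The 822 genes at the unadjusted threshold became 542 with the choroid plexus level held fixed, and 620 (without Het-Met E2 replicate 3) to 999 (without Het-Met vehicle replicate 1) with 1 library left out. The 5 leading genes whose responses differed between genotypes became 0 with no filter on low values, 2 with at least 2 CPM, 2 with quantile normalization, 13 with DESeq2, 0 with the choroid plexus level and 1 with the oligodendrocyte and myelin level held fixed. With 1 library left out they ran from 0 to 10, with 10 without Het-Met E2 replicate 1, 9 without WT vehicle replicate 3 and 0 without any 1 of the other 8. The causes were not tested. Among the other named genes, 179 values lost and 65 gained the unadjusted threshold over all alternatives, and no value past a threshold changed sign.

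Same-numbered Het-Met pools did not deviate together, with correlations of -0.124, 0.0162 and -0.0736. These values gave no sign that the numbers pair the pools, but so few pools cannot exclude it. A replicate block within the 6 Het-Met libraries gave 538 genes at the unadjusted threshold, and a replicate block over all 10 libraries gave 2 leading genes that differed between genotypes.

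With 3 pools of 2 animals on each side, changes below a log2 value of about 0.22 could not be told from the spread for a gene of median precision, and Krt8, Wdr63, Steap1, Mei1, Idi1 and Egr2 rest on few reads.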

Other observations

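Respiratory chain genes were lower with E2 in 43 of 55 tested, with a median log2 fold change of -0.06, against 0.00 for all genes tested. The summed level was 8830, 7850 and 7303 CPM under vehicle and 7512, 7950 and 7659 CPM under E2, and without vehicle-treated pool 1, the highest, the median was 0.04 with 6 genes past the unadjusted threshold on the higher side. Without vehicle-treated pool 3, the lowest under vehicle, it was -0.13 with 6 past it on the lower side. The complex I subunit gene Ndufv1 was past the unadjusted threshold (-0.16), with 139, 136 and 130 CPM under vehicle and 118, 128 and 118 CPM under E2. Its E2-treated pools lay below its vehicle-treated pools. Cytosolic ribosomal protein genes were lower in 35 of 57 (median -0.03, and 0.04 without vehicle-treated pool 1), with Rps21 and Rpl8 past the unadjusted threshold on the lower side. Many ribosomal protein genes have near-identical processed copies, and 6 of the list were below 0.5 CPM and not tested, so their reads are uncertain.

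Interferon response genes had 11 higher and 12 lower of 23. The antiviral gene Bst2, the MHC class I gene H2-D1 (-0.27) and Ifi27 (-0.29) were past the unadjusted threshold, all lower, as were 2.63% of all genes tested. Bst2 is also among the leading genes above. Circadian clock genes had 10 higher and 10 lower of 20, with the related transcription factor genes Hlf (0.13) and Tef (-0.15) past the unadjusted threshold in opposite directions. With the choroid plexus level held fixed, Ndufv1, Rps21, Rpl8, H2-D1, Ifi27, Hlf and Tef no longer passed. Of 18 neuropeptide genes 12 were higher, with Ecel1, an endopeptidase of neurons, past the unadjusted threshold (0.79). It had 5.31, 6.31 and 5.98 CPM under vehicle and 11.1, 6.13 and 16.7 CPM under E2, with E2-treated pool 2 inside the vehicle range.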
